A study of Mus musculus with 6 samples.

Results

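The genes described here encode 8 amino acid transporters of the plasma membrane. They were taken by symbol from the deposited count table, which holds 55291 gene symbols, and all 8 were among the 14475 genes with enough counts to be tested. They are Slc7a5, Slc3a2, Slc1a5, Slc38a1, Slc38a2, Slc7a1, Slc7a6 and Slc7a11. The libraries hold RNA of group 1 innate lymphocytes, namely ILC1s and natural killer (NK) cells, each sorted from MC38 tumours that had grown under the skin of wild-type C57BL/6 mice for 14 days. MC38 is a mouse colon carcinoma line of C57BL/6 origin, and the labels name no transgene, gene deletion or drug in either group. Each cell type had 3 libraries, and the labels do not say whether these came from separate mice or from pooled mice, so each p-value reflects the variation among these samples, which may be technical.

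Amino acid transporters set how fast a lymphocyte can take up the building blocks and signals that growth and cytokine production need. Slc7a5 (LAT1) and Slc3a2 (CD98 heavy chain) form a disulfide-linked pair that exchanges large neutral amino acids such as leucine for glutamine, and Slc1a5, Slc38a1 and Slc38a2 bring in glutamine and other small neutral amino acids. In NK cells and T cells, cytokine stimulation is known to raise Slc7a5 and Slc3a2, and leucine supplied in this way feeds the kinase complex mTORC1 and the transcription factor MYC. Slc7a1 imports arginine and lysine, Slc7a6 exchanges arginine for neutral amino acids, and Slc7a11 (xCT) imports cystine for glutathione synthesis.

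Sums of NK cell and ILC1 markers followed the labels. The 5 NK cell markers summed to 90.9 to 219 CPM (counts scaled to library size) in ILC1s and to 504 to 827 CPM in NK cells, and the 6 ILC1 markers to 482 to 647 CPM in ILC1s and 99.6 to 123 CPM in NK cells. The 4 markers of group 1 innate lymphocytes summed to 4241, 3640 and 3565 CPM in ILC1 replicates 1 to 3. In NK replicates 1 to 3 they summed to 6382, 6832 and 4242 CPM. The 8 T cell markers summed to 200, 173 and 336 CPM in ILC1 replicates 1 to 3 and to 184, 180 and 153 CPM in NK replicates 1 to 3. Some libraries stood apart within their cell type. The 12 macrophage markers summed to 391, 290 and 13766 CPM in ILC1 replicates 1 to 3 and to 190, 111 and 286 CPM in NK replicates 1 to 3, with 1 marker at 0 in NK replicate 1 and 1 in NK replicate 2. Of 10 fibroblast and matrix markers, the 9 other than Thy1 (which lymphocytes also express) summed to 1116, 1661 and 57.1 CPM in ILC1 replicates 1 to 3 and to 5.89, 13.1 and 934 CPM in NK replicates 1 to 3. With Thy1 the sums ran from 1001 to 2512 CPM in ILC1s and from 700 to 1461 CPM in NK cells, and 3 and 2 of these markers were at 0 in NK replicates 1 and 2. The 7 dendritic cell markers summed to 119 to 2207 CPM in ILC1s, with ILC1 replicate 3 the highest, and to 63.5 to 75.9 CPM in NK cells. The 7 epithelial markers summed to 106 to 382 CPM in ILC1s and 16.1 to 33.0 CPM in NK cells, with Krt20 at 0 in every library. These markers did not move together. Of the 5 that were tested, 2 had a higher and 3 a lower level in ILC1s, with a median log2 fold change (ILC1 minus NK) of -0.39. The 10 proliferation markers followed the division by matrix markers, with 1310, 1439 and 594 CPM in the ILC1 libraries and 570, 572 and 933 CPM in the NK libraries. ILC1 replicates 1 and 2 with NK replicate 3 are called the matrix-rich libraries below, a grouping that rests on the data and on no label. Over all genes tested, log2 CPM of NK replicate 3 had a Pearson correlation of 0.977 and 0.971 with ILC1 replicates 1 and 2. With NK replicates 1 and 2 it was 0.88 each, so NK replicate 3 was closer to those ILC1 libraries than to its own group. The cause was not tested. Library totals ran from 16931099 to 20224847 counts. In bulk samples, fewer cells of a type and less RNA per cell cannot be told apart.

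None of the 8 transporter genes passed edgeR's quasi-likelihood test between ILC1s and NK cells at a Benjamini-Hochberg adjusted p under 0.05. Of all genes tested 0.0829% passed it, 0.076% higher and 0.00691% lower in ILC1s. Without the adjustment 1 of 8 had a p under 0.05, Slc7a5, against 15.8% of all genes (6.95% higher and 8.82% lower). DESeq2 called 0 of 8 and 6.98% of all genes (2.94% higher and 4.03% lower), and limma-voom called 0 of 8 and 0.111% of all genes. Limma-voom with a weight for each library, in which ILC1 replicate 3 and NK replicate 3 counted least, called 2 of 8 higher, Slc7a5 (adjusted p = 0.0140) and Slc7a6 (adjusted p = 0.0314), beside 15.9% of all genes in either direction (7.92% higher and 7.94% lower). In that fit 6 of 8 had an unadjusted p under 0.05, as did 36.9% of all genes. The fold changes were above 0 for 7 of the 8 genes, as for 56% of all genes, and their median on the log2 scale (ILC1 minus NK) was 0.27, beside 0.08 for all genes tested. Slc7a11 alone of the 8 had every ILC1 library above every NK library, where 12.5% of all genes did so. The reverse order was seen in 13.3% of all genes and 0 of 8, which makes 25.8% of all genes without overlap. With the 3 library sets (the matrix-rich libraries, NK replicates 1 and 2, and ILC1 replicate 3) as a term in the edgeR fit, 0 of 8 and 0.228% of all genes passed. In that fit the cell type effect rests on the matrix-rich libraries.

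**Figure D1:**
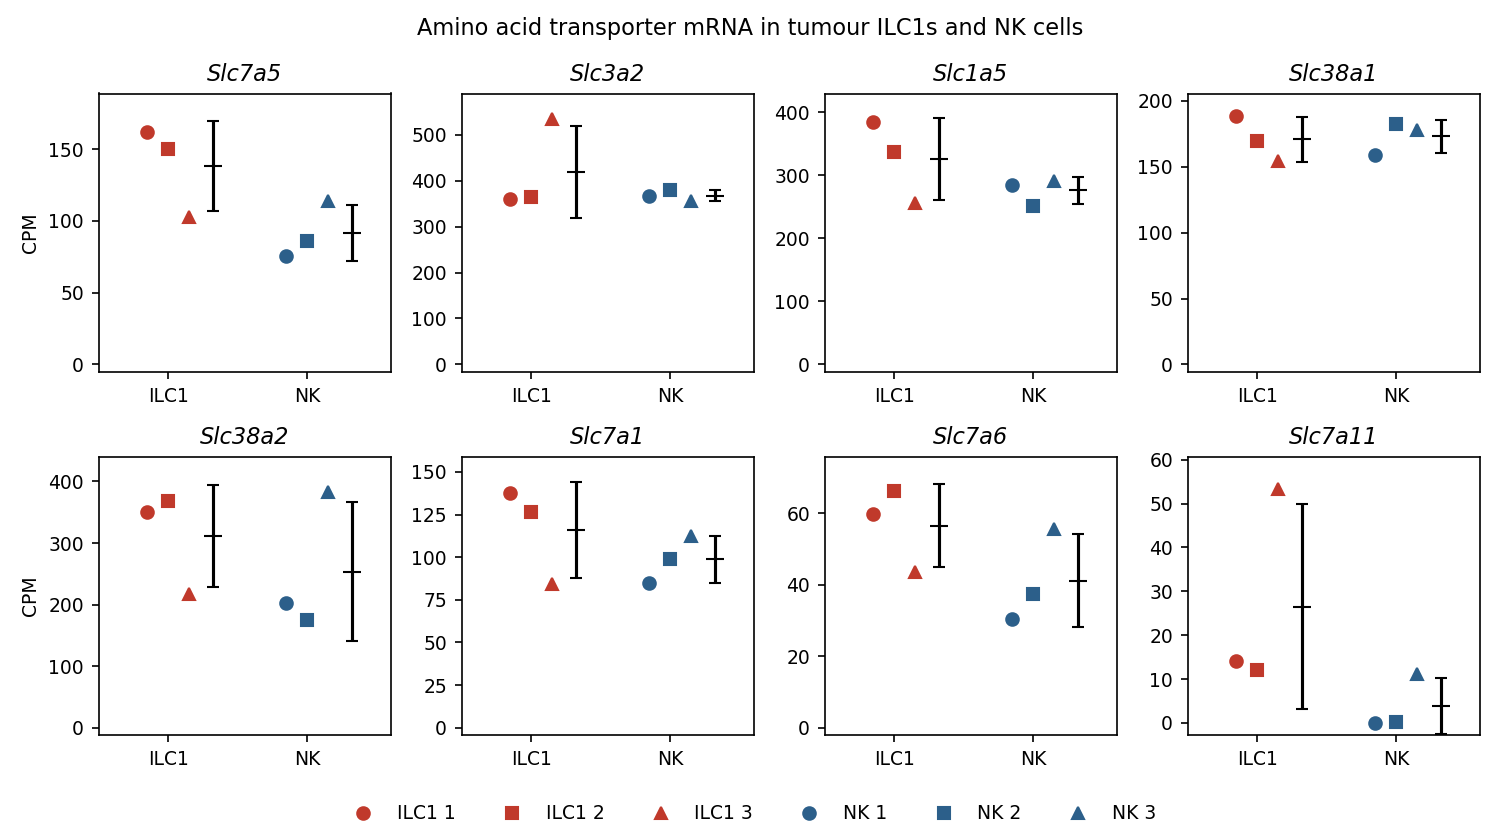
CPM of the 8 transporter genes in each library, with ILC1s on the left and NK cells on the right of each panel and a bar for the mean ± SD (n = 3 each). Slc3a2 lay between 356 and 379 CPM in every library but ILC1 replicate 3 (535 CPM), and NK replicates 1 and 2 held 0 and 0.257 CPM of Slc7a11.

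Slc7a5, the leucine-transporting light chain, had 162, 150 and 103 CPM in ILC1 replicates 1 to 3, against 75.6, 85.9 and 114 CPM in NK replicates 1 to 3. The lowest ILC1 library lay below the highest NK library, so the groups overlapped by that pair alone. The mean was 138 ± 31.5 CPM for ILC1s and 91.7 ± 19.7 CPM for NK cells (SD, n = 3 each), which is a 1.51-fold difference with a 95% interval of 1.01 to 2.26 (log2 fold change 0.59 ± 0.24 SE, edgeR adjusted p = 0.311). Among the matrix-rich libraries Slc7a5 was 0.46 higher in ILC1 replicates 1 and 2 than in NK replicate 3 on the log2 scale. In the other libraries ILC1 replicate 3 was 0.35 above NK replicates 1 and 2. With these library sets as a term the log2 fold change was 0.46 ± 0.15 (edgeR adjusted p = 0.452). It was 0.75 without ILC1 replicate 3 and 0.79 without NK replicate 3.

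Slc3a2, the heavy chain that carries Slc7a5 and other SLC7 light chains to the cell surface, had 359, 365 and 535 CPM in ILC1 replicates 1 to 3, against 366, 379 and 356 CPM in NK replicates 1 to 3. Apart from ILC1 replicate 3, where macrophage markers were high, the values were nearly level. The means were 420 ± 100.1 CPM for ILC1s and 367 ± 11.6 CPM for NK cells (SD, n = 3 each), which gave a log2 fold change of 0.19 ± 0.19 with a 95% interval of -0.28 to 0.66 (edgeR adjusted p = 0.661). Without ILC1 replicate 3 the log2 fold change was -0.03 ± 0.11. The part of the macrophage genes in the high value was not tested.

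Slc1a5 (ASCT2), an exchanger of glutamine and other neutral amino acids, had 385, 336 and 256 CPM in ILC1s, against 285, 252 and 291 CPM in NK cells. ILC1 replicates 1 and 2 were the highest libraries, and ILC1 replicate 3 lay among the NK libraries. The log2 fold change was 0.24 ± 0.18 with a 95% interval of -0.21 to 0.69 (edgeR adjusted p = 0.570). It was 0.11 without ILC1 replicate 1 (edgeR adjusted p = 0.854) and 0.37 without ILC1 replicate 3 (edgeR adjusted p = 0.335).

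Slc38a1 (SNAT1) and Slc38a2 (SNAT2), sodium-coupled importers of small neutral amino acids, are neighbours on chromosome 15 with 44478 bases between them, and they differed in how they varied. Slc38a1 had 189, 170 and 154 CPM in ILC1s, against 159, 183 and 178 CPM in NK cells. The groups overlapped fully (log2 fold change -0.02 ± 0.13, with a 95% interval of -0.34 to 0.30, edgeR adjusted p = 0.950). That interval is the narrowest of the 8 genes and spans 0.788-fold to 1.23-fold. Slc38a2, which cells are known to raise when amino acids run short, had 351, 368 and 216 CPM in ILC1s, against 202, 176 and 383 CPM in NK cells. The highest library of all was NK replicate 3, at 2.03 times the mean of the other NK libraries, and ILC1 replicate 3 was at 0.602 times the mean of the other ILC1 libraries. The means were 312 ± 83.0 CPM for ILC1s and 254 ± 113 CPM for NK cells (a log2 difference of 0.30 ± 0.36, edgeR adjusted p = 0.719). Within the matrix-rich libraries the difference was -0.09. The log2 fold change of Slc38a2 was 0.13 without NK replicate 1, 0.096 without NK replicate 2, 0.17 without ILC1 replicate 2, 0.48 without ILC1 replicate 3, and 0.73 ± 0.27 without NK replicate 3 (edgeR adjusted p = 0.173).

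Slc7a1 (CAT1), the main carrier of arginine and lysine in many proliferating cells, had 137, 126 and 84.0 CPM in ILC1s, against 84.6, 99.2 and 112 CPM in NK cells. Its ILC1 libraries held both the highest value and the lowest one (log2 fold change 0.23 ± 0.22, with a 95% interval of -0.31 to 0.77, edgeR adjusted p = 0.649). The log2 fold change of Slc7a1 was 0.10 without ILC1 replicate 1, 0.12 without NK replicate 1 and 0.40 without ILC1 replicate 3. Slc7a6 (y+LAT2), another light chain of Slc3a2, had 59.7, 66.4 and 43.7 CPM in ILC1s, against 30.5, 37.5 and 55.6 CPM in NK cells. NK replicate 3 was close to the ILC1 libraries, at 1.64 times the mean of the other NK libraries. The log2 fold change of Slc7a6 was 0.46 ± 0.27 with a 95% interval of -0.21 to 1.13 (edgeR adjusted p = 0.462). In the fit with library sets it was 0.18 ± 0.19, without NK replicate 1 it was 0.26, and without NK replicate 3 it was 0.74 ± 0.23 (edgeR adjusted p = 0.135).

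Slc7a11, the cystine importer, had 14.1, 12.1 and 53.4 CPM in ILC1 replicates 1 to 3, against 0, 0.257 and 11.1 CPM in NK replicates 1 to 3. These values rest on 253, 249 and 921 counts in ILC1s and on 0, 5 and 232 counts in NK cells. The count of 0 in NK replicate 1 allows up to 0.15 CPM (3 counts, for counting error only). The levels of ILC1 replicates 1 and 2 and of NK replicate 3 were close to each other and far above those of NK replicates 1 and 2, and ILC1 replicate 3 was the highest library. The fitted log2 fold change was 2.80 ± 1.90 with a 95% interval of -1.91 to 7.51 (edgeR adjusted p = 0.519). In the fit with library sets it was 0.23 ± 0.50, without ILC1 replicate 3 it was 1.73, and without NK replicate 3, where the NK side holds 5 counts, it was 7.64 ± 1.49 (edgeR adjusted p = 0.0704). The macrophage and matrix markers given above moved with the same libraries, and their part in the Slc7a11 values was not tested.

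**Figure D2:**
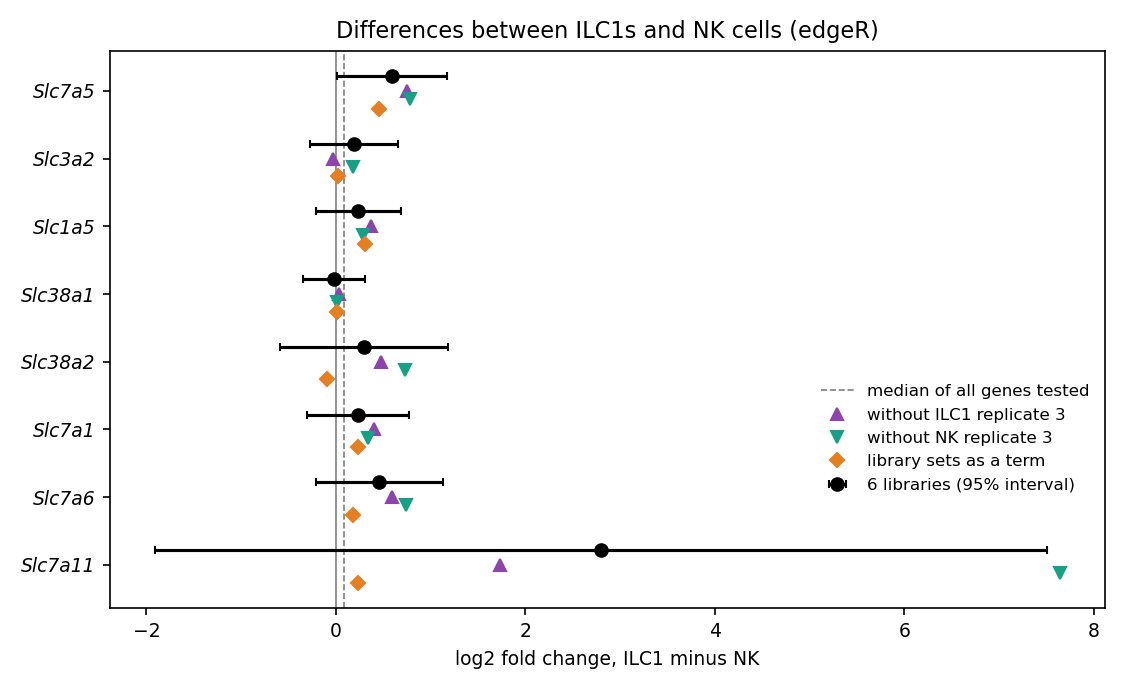
Log2 fold change (ILC1 minus NK) of each transporter gene on the x axis, from all 6 libraries with its 95% interval (black), without ILC1 replicate 3, without NK replicate 3, and from the fit with library sets. Slc7a5 stayed between 0.46 and 0.79 in these fits, while Slc7a11 ranged from 0.23 to 7.64.

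Promoter sequence is shown for the 3 genes that separated the matrix-rich libraries from NK replicates 1 and 2 most plainly, Slc7a11, Slc38a2 and Slc7a6. The RefSeq table on GRCm38.p6 held 7 windows for 5 of the 8 genes, and Slc7a5, Slc1a5 and Slc38a1 had no entry. Each line gives the 250 bases before the start site, 5′ to 3′ on the strand of the gene, with matches to the searched motifs in capitals.
Slc7a11 (chr3:50443614-50443863, reverse strand): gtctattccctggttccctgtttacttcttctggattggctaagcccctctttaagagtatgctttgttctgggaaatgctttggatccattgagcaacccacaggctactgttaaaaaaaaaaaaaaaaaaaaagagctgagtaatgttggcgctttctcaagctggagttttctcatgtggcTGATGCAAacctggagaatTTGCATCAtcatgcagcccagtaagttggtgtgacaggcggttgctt
Slc38a2 (chr15:96699729-96699978, reverse strand): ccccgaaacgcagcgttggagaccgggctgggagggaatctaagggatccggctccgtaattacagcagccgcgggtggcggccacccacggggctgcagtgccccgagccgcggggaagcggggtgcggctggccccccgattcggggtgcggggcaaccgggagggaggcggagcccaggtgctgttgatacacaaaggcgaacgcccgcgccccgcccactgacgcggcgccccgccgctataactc
Slc7a6 (chr8:106168604-106168853, forward strand): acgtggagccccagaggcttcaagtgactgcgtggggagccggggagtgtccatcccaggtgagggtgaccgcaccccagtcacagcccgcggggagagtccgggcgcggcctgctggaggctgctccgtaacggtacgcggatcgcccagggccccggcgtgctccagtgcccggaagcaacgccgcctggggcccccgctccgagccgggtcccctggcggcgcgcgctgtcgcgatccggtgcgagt
The motifs searched on both strands were the E-box CACGTG, which MYC and related factors bind, and TGATGNAA, the core of the element through which C/EBP and ATF factors such as ATF4 act on genes of the amino acid response. Their letters do not overlap. In windows of 300 bases around the start, 7.2% of the 32851 promoters in the table held the E-box and 4.0% held the C/EBP-ATF core. Slc7a11 had 2 matches to the core, TGATGCAA beginning 66 bases before the start and its reverse complement TTGCATCA beginning 47 bases before it. The windows of Slc3a2, Slc38a2, Slc7a1 and Slc7a6 held neither motif. The only window of Slc3a2 (8713848 to 8714147) lies inside the gene as positioned below, so the 5′ end of that annotated gene was not searched. Window 2 of Slc7a1 (148392766 to 148393065) also lies inside its gene. A match describes letters in a window and not binding.

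On GRCm38 (GENCODE M21, 1-based) the 8 genes are all annotated as protein coding. Slc7a5 (121881150 to 121907694) and Slc7a6 (106168857 to 106198706) lie on chromosome 8, Slc38a1 (96571418 to 96642913) and Slc38a2 (96687392 to 96699730) on chromosome 15, and Slc3a2 (8706882 to 8723369) on chromosome 19. Slc1a5 lies on chromosome 7 (16781340 to 16798274), Slc7a1 on chromosome 5 (148327410 to 148399904) and Slc7a11 on chromosome 3 (49892526 to 50443614). Counts refer to the whole gene, and no exon of another annotated gene overlapped the exons of these 8.

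Levels were compared between genes as CPM per kilobase of merged exons. Slc3a2 was the most abundant of the 8, with 119 ± 28.4 in ILC1s and 104 ± 3.28 in NK cells, and Slc1a5 followed with 78.1 ± 15.6 in ILC1s and 66.2 ± 5.07 in NK cells. With this length every library of Slc3a2 lay above every library of Slc1a5 in either cell type. Slc7a5 (37.3 ± 8.48 in ILC1s and 24.7 ± 5.31 in NK cells) and Slc38a2 (35.3 ± 9.39 in ILC1s and 28.7 ± 12.8 in NK cells) came next and did not differ beyond their spread. Slc7a6, Slc38a1 and Slc7a1 lay close together, between 8.56 and 12.4 on average in either cell type, and Slc7a11 was last with 1.91 ± 1.67 in ILC1s and 0.273 ± 0.457 in NK cells. With the longest transcript as the length, Slc38a1 moved up to the fifth place with 23.7 over all libraries, while the first 4 places and the last place were held by the same genes on average. With that length the ILC1 libraries of Slc3a2 and Slc1a5 overlapped, since Slc1a5 had 137 in ILC1 replicate 1 and Slc3a2 had 128 and 129.6 in ILC1 replicates 1 and 2.

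In amino acid transport the heavy chain Slc3a2 works only with a light chain. Its known SLC7 partners include Slc7a5, Slc7a6, Slc7a7, Slc7a8, Slc7a10 (at 0 in every library) and Slc7a11. The following ratios were computed after the values were seen and carry no test. Per kilobase, Slc3a2 mRNA stood at 1.71, 1.80 and 1.95 times the summed light chain mRNA in ILC1 replicates 1 to 3, against 3.38, 3.25 and 2.23 times in NK replicates 1 to 3. The ratio was lower in every ILC1 library than in every NK library. The light chains behind it were not alike. Slc7a5 made up 73.4, 70.9 and 35.6% of the light chain level in ILC1s, against 66.4, 70.1 and 67.7% in NK cells. In ILC1 replicate 3, 33.6% was Slc7a8 and 13.6% Slc7a7, where these made up at most 5.85% and 5.99% in any other library. With the 3 light chains among the 8 genes alone (Slc7a5, Slc7a6 and Slc7a11), the ratio was 1.76, 1.85 and 3.69 in ILC1s and 3.84, 3.43 and 2.31 in NK cells, and the groups overlapped.

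**Figure D3:**
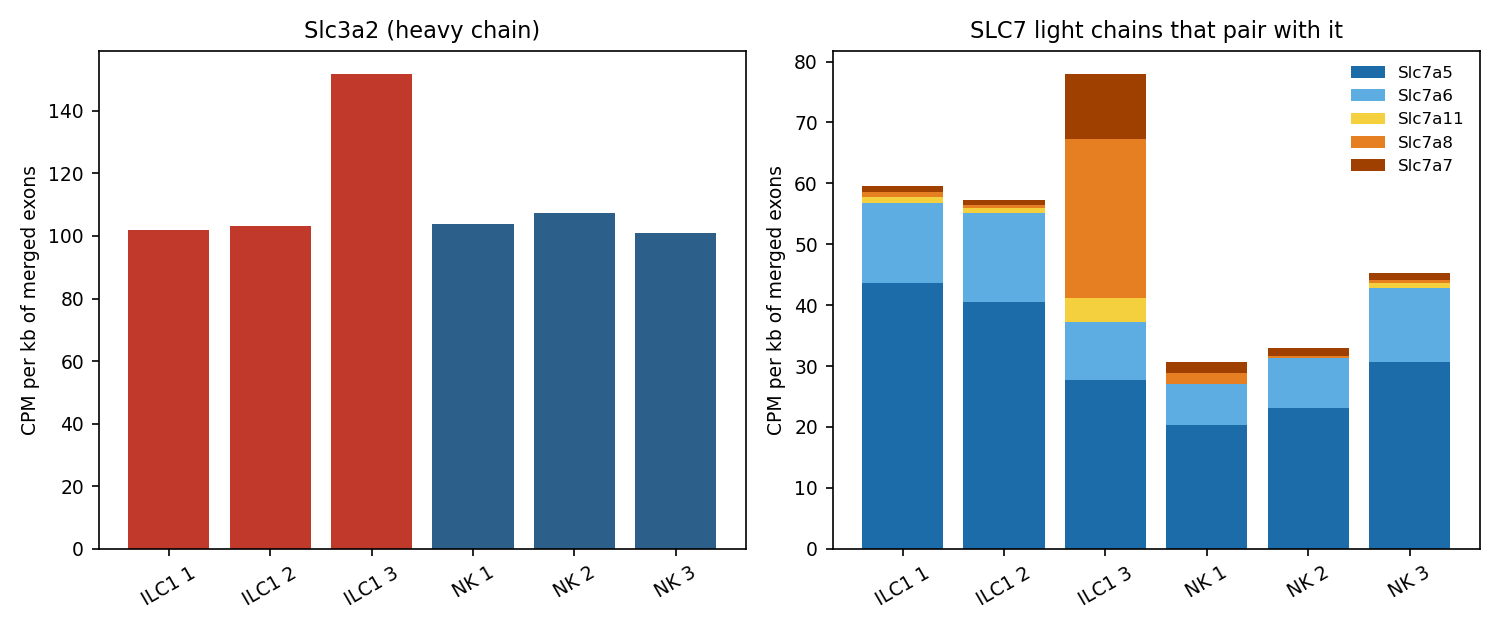
Slc3a2 (left) and its stacked SLC7 light chains (right) in CPM per kilobase of merged exons, 1 bar a library, with ILC1 libraries left of NK libraries. The light chain sum was 59.6, 57.2 and 77.9 in ILC1s and 30.7, 33.0 and 45.3 in NK cells, and Slc7a8 and Slc7a7 stood out in ILC1 replicate 3 alone.

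Across the 6 libraries the 8 genes varied together in part. The Pearson correlation of log2 CPM is given here as a description over 6 libraries that share their depth and their content of other cells. Its median over the 28 pairs was 0.54. The highest was 0.95 between Slc7a5 and Slc7a6, followed by 0.90 between Slc38a2 and Slc7a6 and 0.89 between Slc7a5 and Slc7a1. Slc3a2 went against most of the others, with -0.20 to Slc7a5 and -0.66 to Slc38a1, and Slc7a11 was the member to which it was closest (0.44). Among 8848 other genes with a mean of at least 10 CPM, the genes most like Slc7a5 were Nfe2l1, which encodes a CNC-family transcription factor (0.993), and Zmynd19 (0.992). Those most like Slc3a2 were Gcsh, a component of the glycine cleavage system (0.998), and Gdi2, a regulator of Rab GTPases (0.997), with Gdi2 at 760 CPM in ILC1 replicate 3 and 351 to 389 CPM in the other libraries. Slc38a2 was most like the nuclear export receptor gene Xpo1 (0.998) and Ankrd28 (0.994), and Slc1a5 most like Cnst (0.986) and the signalosome subunit gene Cops3 (0.985). Slc38a1 was most like Cnot1, the scaffold of the CCR4-NOT complex (0.994), and Hcfc1 (0.977), and Slc7a1 most like the replication kinase gene Cdc7 (0.994) and Pkp4 (0.992). Slc7a6 was most like the ATF4 target Trib3 (0.998) and the mitotic kinesin gene Kif4 (0.996). Slc7a11 was most like Trib1 (0.999) and Pdpn, which encodes the stromal and myeloid cell protein podoplanin (0.997). Each pair of nearest genes was picked as the 2 highest of 8848 correlations over 6 libraries, a choice that by itself favours high values. Shared regulation was not tested. The correlations use a prior count of 2. With 0.5 the genes most like Slc7a11 were Pdpn (0.998) and Arhgef10l (0.996), while the other 7 genes had the same nearest genes. Pdpn was at 42.6, 60.3 and 231 CPM in ILC1s and at 0.0499, 0.873 and 36.8 CPM in NK cells, the same library order that Slc7a11 had in NK cells and with ILC1 replicate 3 highest in each.

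Other amino acid transporters were examined as a list. Of 47 other amino acid transporter genes, 18 were tested, and edgeR called 0 of the 18. An unadjusted p below 0.05 was seen for 2 of them, beside 15.8% of all genes. DESeq2 called 1, beside 6.98% of all genes, and limma-voom called 0. The median log2 fold change of the 18 genes was 0.76, beside 0.08 for all genes tested. Without ILC1 replicate 3 the median of the 18 was 0.04, and in the fit with library sets it was 0.15. The median of the 8 genes was 0.44 without ILC1 replicate 3. Slc36a4, a proton-independent carrier of proline and tryptophan, had 17.6, 18.4 and 32.7 CPM across ILC1 libraries, against 6.44, 9.40 and 9.85 CPM across NK libraries, with no overlap (log2 fold change 1.42 ± 0.34, edgeR adjusted p = 0.167, and adjusted p = 0.00866 by DESeq2). Slc16a10 (TAT1), a carrier of aromatic amino acids, had 21.9, 18.2 and 31.7 CPM across ILC1 libraries, against 14.8, 12.5 and 13.3 CPM across NK libraries (a log2 fold change of 0.82 ± 0.25, edgeR adjusted p = 0.242). Slc7a2, the cationic amino acid carrier CAT2 that activated macrophages are known to use, had 16.7, 9.79 and 304 CPM across ILC1 libraries, against 1.1, 1.18 and 14.5 CPM across NK libraries (a log2 fold change of 4.30 ± 1.85, and 1.2 without ILC1 replicate 3), and its direction turned in the fit with library sets (-0.14) and in the matrix-rich libraries alone (-0.18). Slc7a8 (LAT2), picked for its values, reached 131 CPM in the third ILC1 library, against 3.84 and 2.44 CPM in ILC1 replicates 1 and 2 and 8.99, 1.34 and 2.55 CPM across NK libraries. DESeq2 gave no adjusted p for Slc7a2, Slc7a7, Slc7a8 and Slc43a2.

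**Figure D4:**
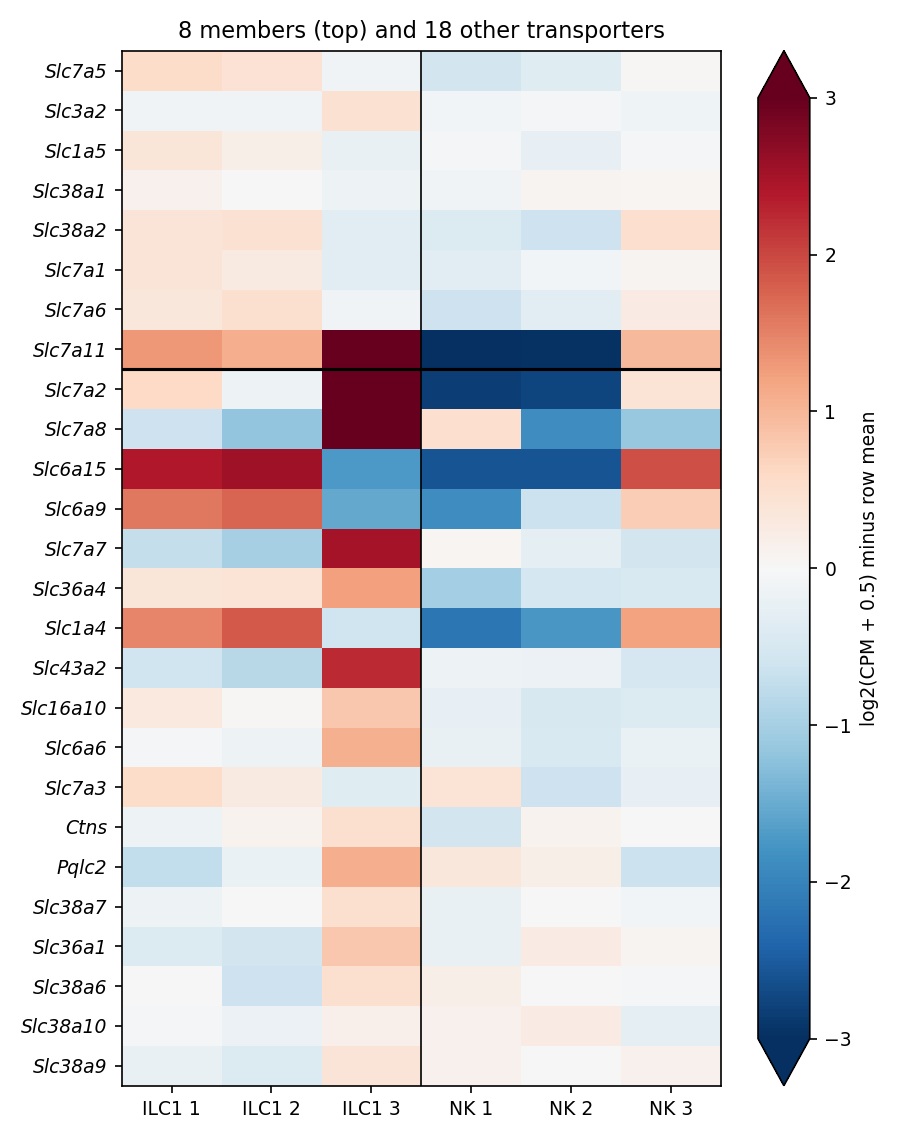
Log2(CPM + 0.5) of the 8 transporter genes (above the line) and of the 18 other tested transporter genes (below it), each minus its own mean over the 6 libraries, with ILC1 libraries left of NK libraries. Slc7a2, Slc7a8, Slc7a7 and Slc43a2 were highest in ILC1 replicate 3, and Slc6a15, Slc6a9 and Slc1a4 in ILC1 replicates 1 and 2 and NK replicate 3.

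The 22 genes of the response to amino acid shortage through the kinase GCN2 and the factor ATF4 had a median log2 fold change of 0.95. They include the pathway genes Eif2ak4 (GCN2), Gcn1 and Atf4 themselves. All genes tested had a median of 0.08. Above 0 were 20 of the 22, beside 56% of all genes. edgeR called 0 of the 22. An unadjusted p below 0.05 was seen for 3 of them (13.6%), all higher in ILC1s, beside 15.8% of all genes (6.95% higher). DESeq2 called 3 higher, beside 2.94% of all genes, and limma-voom called 0. In the fit with library sets the median of the 22 was 0.46. Ddit4 (REDD1), an inhibitor of mTORC1, had 210, 199 and 155 CPM across ILC1 libraries, against 87.0, 83.2 and 129 CPM across NK libraries (a log2 fold change of 0.92 ± 0.22, edgeR adjusted p = 0.175). Sesn2, a leucine sensor, had 29.6, 31.8 and 27.6 CPM across ILC1 libraries, against 17, 16.6 and 21.5 CPM across NK libraries (0.69 ± 0.17, edgeR adjusted p = 0.181). Mthfd2, an enzyme of mitochondrial one-carbon metabolism, had 79.0, 82.5 and 67.1 CPM across ILC1 libraries, against 31.5, 26.6 and 57.5 CPM across NK libraries (0.99 ± 0.31, edgeR adjusted p = 0.249). These are the 3 that DESeq2 called. Every ILC1 library was above every NK library for them and for 4 of the 22 in all, which is 18.2%, beside 12.5% of all genes.

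Genes of amino acid sensing around mTORC1 had a median of 0.12 over 33 tested genes, near the 0.08 of all genes tested. edgeR called 0 of the 33, DESeq2 called 1 lower and limma-voom called 0. An unadjusted p below 0.05 by edgeR was seen for 5 higher and 2 lower genes, together 21.2%, beside 15.8% of all genes. Among all genes 6.95% were higher and 8.82% lower at such a p, and DESeq2 called 4.03% lower. Sesn1, a relative of Sesn2, had 35.5, 26.5 and 25 CPM across ILC1 libraries, against 63.6, 59.8 and 46.4 CPM across NK libraries (a log2 fold change of -0.97 ± 0.20, edgeR adjusted p = 0.140, and adjusted p = 0.00390 by DESeq2). Rraga, a Rag GTPase that brings mTORC1 to the lysosome, had 49.6 ± 10.6 CPM across ILC1 libraries and 32.2 ± 3.85 CPM across NK libraries, and Rheb, the GTPase that activates it there, 88.6 ± 11.9 CPM across ILC1 libraries and 64.8 ± 6.26 CPM across NK libraries (SD, n = 3 each). The 20 cytosolic aminoacyl-tRNA synthetases had a median of 0.13 with 0 called by edgeR, DESeq2 or limma-voom (1 with an unadjusted p below 0.05 by edgeR). By edgeR 15.8% of all genes had such a p, and DESeq2 called 6.98% of all genes. The arginine, asparagine and phenylalanine enzymes Rars, Nars and Farsb had log2 fold changes of 0.39 ± 0.14, 0.40 ± 0.17 and 0.35 ± 0.15, with edgeR adjusted p-values of 0.281, 0.319 and 0.334.

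Among 26 tested enzymes of amino acid metabolism the median was 0.25 and edgeR called 0 (6 with an unadjusted p below 0.05, all higher, 3 higher by DESeq2, 0 by limma-voom). At such a p 6.95% of all genes were higher, and DESeq2 called 2.94% of all genes higher. The 3 enzymes that DESeq2 called belong to polyamine and methyl group metabolism. Odc1, which turns ornithine, a product of arginine, into the first polyamine, had 701, 651 and 623 CPM across ILC1 libraries, against 315, 278 and 410 CPM across NK libraries (a log2 fold change of 0.98 ± 0.18, edgeR adjusted p = 0.124). Srm, the next enzyme of that path, had 80.9, 89.7 and 81.8 CPM across ILC1 libraries, against 49.9, 53.5 and 54.7 CPM across NK libraries (0.67 ± 0.11, edgeR adjusted p = 0.107). Ahcy, which clears the product of methylation reactions, had 127 ± 20.4 CPM across ILC1 libraries and 83.2 ± 6.10 CPM across NK libraries (0.61 ± 0.15, edgeR adjusted p = 0.186). The ILC1 libraries lay above the NK libraries for these 3 and for 5 of the 26 in all, which is 19.2%, beside 12.5% of all genes. With the sets as a term their log2 fold changes were 0.72, 0.64 and 0.59. Arg1, the arginase of tumour macrophages, picked for its values, reached 4608 CPM in the third ILC1 library, against 77.7 and 53.0 CPM in ILC1 replicates 1 and 2 and 17.9, 15.1 and 74.5 CPM across NK libraries.

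The NRF2 and glutathione genes, of which some use the cysteine that Slc7a11 provides, had a median of 0.55 over 13 genes. Without ILC1 replicate 3 their median was 0.20. edgeR called 0 of the 13 (3 with an unadjusted p below 0.05, all higher, 2 higher by DESeq2, 0 by limma-voom). At such a p 6.95% of all genes were higher, and DESeq2 called 2.94% of all genes higher. Every ILC1 library was above every NK library for 5 of the 13, which is 38.5%, beside 12.5% of all genes. Thioredoxin (Txn1) had 211, 296 and 317 CPM across ILC1 libraries, against 119, 147 and 200 CPM across NK libraries (a log2 fold change of 0.82 ± 0.25, edgeR adjusted p = 0.243). Gpx1, a glutathione peroxidase, had 149, 193 and 665 CPM across ILC1 libraries and 106, 102 and 127 CPM across NK libraries, and glutathione reductase (Gsr) 57.0, 69.3 and 91.2 CPM across ILC1 libraries and 52.1, 42.2 and 54.5 CPM across NK libraries. The MYC network list had a median of -0.10 over 10 genes with 0 called by edgeR (1 with an unadjusted p below 0.05, 1 lower by DESeq2, 0 by limma-voom). DESeq2 called 4.03% of all genes lower, and 15.8% of all genes had such an unadjusted p by edgeR. Mxd4, a repressor that competes with MYC for its partner, had 57.6 ± 3.18 CPM across ILC1 libraries and 103 ± 28.7 CPM across NK libraries (a log2 fold change of -0.83 ± 0.23, edgeR adjusted p = 0.202), and Mga and Mlxip had log2 fold changes of -0.36 ± 0.18 and -0.36 ± 0.19. Myc itself, picked for its values, had 267, 256 and 97.3 CPM across ILC1 libraries, against 174, 146 and 246 CPM across NK libraries.

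Some lists had calls in fits that also called many other genes. Limma-voom with library weights, which called 15.9% of all genes, called 6 of the 22 amino acid response genes, 3 of the 20 synthetases, 3 of the 26 metabolic enzymes, 2 of the 13 NRF2 and glutathione genes and 1 of the 18 other transporters, all higher in ILC1s. It called 3 higher and 1 lower of the 33 sensing genes, and 2 of the 10 MYC network genes, both lower. In that fit 12 of the 22 response genes had an unadjusted p below 0.05, and so did 10 of the 20 synthetases (8 higher and 2 lower), beside 36.9% of all genes, and the synthetase median was 0.30. The fit of the matrix-rich libraries alone sets ILC1 replicates 1 and 2 against NK replicate 3 only, so only its effect sizes are given. There the median log2 fold change was 0.42 for the response genes, 0.17 for the synthetases and 0.08 for the metabolic enzymes. It was 0.13 for the NRF2 and glutathione genes, 0.11 for the other transporters, -0.04 for the sensing genes and -0.25 for the MYC network genes. Without NK replicate 3, where edgeR called 3% of all genes, 3 response genes and 1 metabolic enzyme were called higher and 1 MYC network gene lower.

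**Figure D5:**
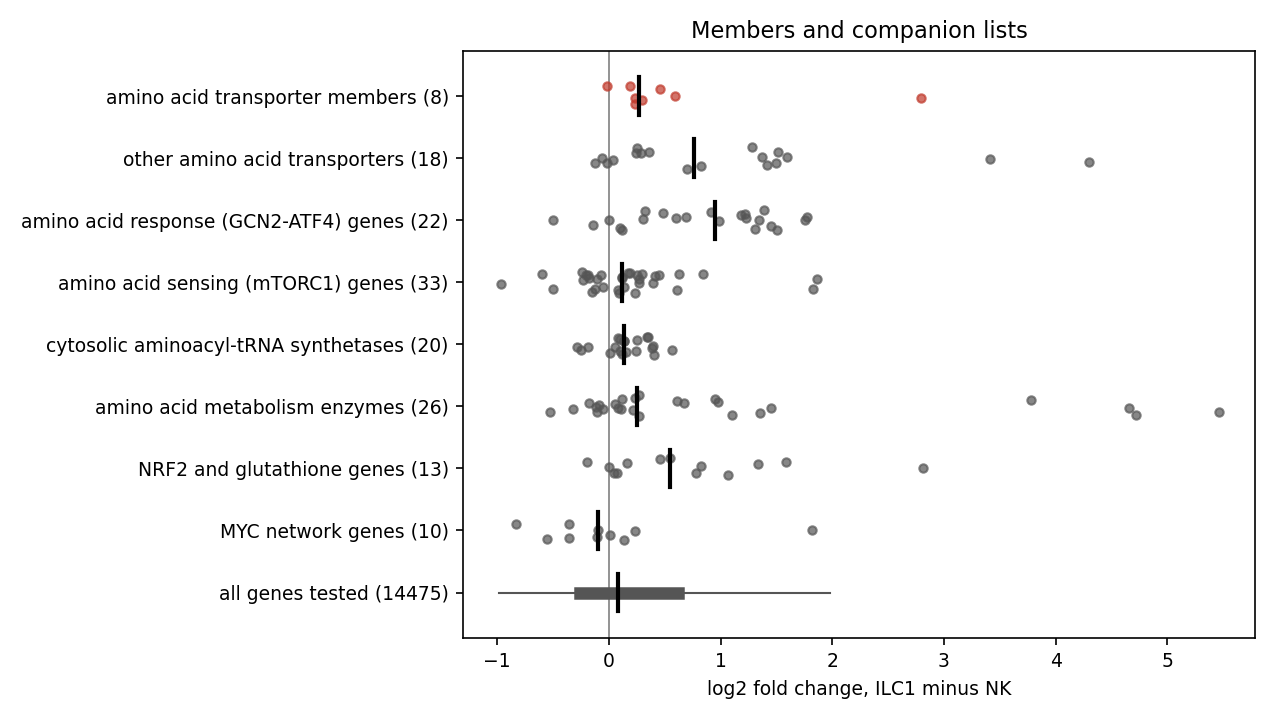
Log2 fold change (ILC1 minus NK) of each tested gene on the x axis, by list, with the number tested in brackets and a black bar at the median. For all genes tested the thick line spans the middle 50% and the thin line the 5th to the 95th percentile, and the median of the 8 transporter genes (0.27) lay inside the thick line.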

How the data were processed

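Libraries were made from poly(A)-selected RNA and sequenced as single reads of 50 bases, per the labels' protocols. The authors deposited 1 table of raw counts per gene symbol, not normalized. HISAT2 2.1.0, featureCounts 2.0.1 and the GRCm38 build are named in the submitters' processing notes. The annotation release, strand setting and treatment of multiply mapped reads were not given in the sources used here. The sorting gate was likewise not stated.

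Counts were filtered with filterByExpr (14475 of 55291 symbols kept), scaled by TMM and tested with edgeR 4.0.16 (robust quasi-likelihood, prior count 0.125, R 4.3.3) over all 6 libraries, with cell type as the only term. P-values were adjusted over all genes tested by the Benjamini-Hochberg method. Fold changes are ILC1 minus NK on the log2 scale. CPM used TMM-scaled library sizes. A count of 3 corresponds to 0.144 to 0.174 CPM, and intervals cover the spread between samples. With 3 libraries against 3, an exact two-sided permutation test cannot go below p = 0.1. DESeq2 1.42.0, limma 3.58.1 (voom, also with library weights), other scalings and filters, a replicate block, the library sets and leaving out each library were the alternatives. The scripts were tested on simulated data. Gene positions and lengths came from GENCODE M21, in which 53292 symbols were found.

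The 8 genes, the companion lists and the library sets were chosen with earlier results of these data known. Genes named were the 8, the 3 of each companion list with the smallest unadjusted p, and for each of the 8 the 2 genes of at least 10 CPM with the highest correlation. Others are marked where they appear.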

Additional observations from a re-analysis of the deposited data

How the results depend on the processing

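No log2 fold change of Slc7a5, Slc1a5, Slc7a1, Slc7a6 or Slc7a11 changed direction under the 17 alternatives. Their ranges were 0.42 to 0.86, 0.11 to 0.37, 0.10 to 0.47, 0.14 to 0.78 and 0.19 to 7.64, in that order, and the adjusted p of Slc7a5 ran from 0.0140 to 0.630. Slc3a2, Slc38a1 and Slc38a2 did change direction, with Slc38a2 ranging from -0.13 to 0.73. Slc3a2 ranged from -0.033 to 0.30 when each library was left out (-0.033 without ILC1 replicate 3), was -0.010 with library weights and -0.019 in the matrix-rich libraries alone. Slc38a1 ranged from -0.088 to 0.036 when each library was left out, and was 0.063 with library weights and 0.011 with the library sets. Slc38a2 was -0.092 with the library sets and -0.13 in the matrix-rich libraries alone. The cause was not tested.

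Over all genes the numbers called depended on the method. Without a filter 47 genes were higher and 91 lower, with a minimum mean of 5 CPM 12 were higher and 2 lower, by DESeq2 426 were higher and 584 lower, and by limma-voom 14 were higher and 2 lower. Limma-voom with library weights called 1147 higher and 1150 lower, with 2 of the 8 transporter genes higher and 6 at an unadjusted p below 0.05 (36.9% of all genes). With the library sets 16 were higher and 17 lower, and in the 3 matrix-rich libraries alone, where NK replicate 3 is assumed to vary like the ILC1 libraries, 956 were higher and 935 lower. Leaving out each library gave 0 to 250 higher and 0 to 199 lower, with the most without NK replicate 3. At an unadjusted p below 0.05 there were 0 of the 8 with upper-quartile scaling, 0 with the minimum of 5 CPM and 0 to 4 when each library was left out, with 4 without NK replicate 3, where 26.6% of all genes had such a p.

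Same-numbered ILC1 and NK libraries deviated in opposite directions from their group means (r of -0.363, -0.355 and -0.564). ILC1 replicates 1 and 2 were positive only with NK replicate 3 (0.486 and 0.567). ILC1 replicate 3 was positive with NK replicates 1 and 2 (0.422 and 0.354). These values follow the division by matrix markers, so they cannot show whether the numbers pair the samples, and the labels do not say. With the replicate block edgeR called 0 genes higher and 0 lower (1584 at an unadjusted p below 0.05), and 0 of the 8.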

Other observations

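Further transporter and amino acid response genes, picked for their values and given with no test, were high in the matrix-rich libraries. Slc6a15, a carrier of branched-chain amino acids and proline, had 15.3, 17.1 and 0.406 CPM in ILC1 replicates 1 to 3 and 0, 0 and 10.9 CPM in NK replicates 1 to 3. Slc1a4, a carrier of serine and alanine, had 17.9, 23.5 and 3.94 CPM in ILC1s and 0.999, 1.49 and 15 CPM in NK cells. The asparagine synthetase gene Asns had 66.0, 82.7 and 19.6 CPM in ILC1s and 13.9, 7.96 and 50.4 CPM in NK cells, and Chac1, which encodes a glutathione-degrading enzyme, 15.3, 19.6 and 0.927 CPM in ILC1s and 0.300, 0.0514 and 10.1 CPM in NK cells. The sums of the proliferation and matrix markers were high in the same libraries, and their part in these values was not tested.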
